A study of Ovis aries with 9 samples.

Results

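Hepatocytes of pregnant ewes were compared between late and early gestation, using 6 of the 9 libraries of a series that followed the sheep liver from the virgin state through gestation into lactation. Late gestation held the libraries labelled gestational days 90 to 100, 100 to 120 and 140 to 150, and early gestation those labelled days 40 to 50, 50 to 70 and 70 to 80. The 6 libraries were chosen by these labels and by no measured value, and they held 2074 of the 3404 cells, 1241 in late gestation and 833 in early gestation. Each stage was 1 library of female sheep (Ovis aries), so the 3 stages of a group served as its replicates, and a difference between stages of a group counts here as spread. The remaining libraries, 1 virgin and 2 of lactation (days 7 and 15), are given as levels and entered no comparison. Livers came from slaughtered animals, and hepatocytes were freed with collagenase, picked by hand and given a full-length library per cell with Smart-seq3xpress, a plate-based method. The labels name no genotype, strain, age or treatment, and they do not say how many ewes a stage held, so every p-value measures the spread between these libraries only.

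In pregnancy the mother's liver supplies a growing fetus with glucose while her own tissues turn more and more to fat as fuel. The hepatocyte makes cholesterol through the mevalonate pathway and fatty acids from acetyl-CoA, which in ruminants derives largely from acetate, and both pathways are switched on by the SREBP transcription factors. It takes up fatty acids released by adipose tissue, burns them in mitochondria after coupling to carnitine, or stores them in lipid droplets. The nuclear receptor PPARA, which senses fatty acids, is known to drive much of this second programme, including the liver hormone FGF21. In sheep most of the fetal growth falls in the last part of gestation.

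Each late-gestation library was deeper than each early-gestation library, with 173491742 to 213670593 reads on named genes per library in late gestation and 121865640 to 133692777 in early gestation. Depth per cell was similar, and the median cell held 387843 to 469964 reads in late gestation and 374832 to 432339 in early gestation. The label of hepatocyte held. The 12 hepatocyte markers, ALB (albumin) first among them, summed to 150117 to 176050 CPM (reads scaled to library size with TMM factors) in late gestation and 147197 to 181064 in early gestation. Markers of other cells summed to far less, at most 62.2 CPM for macrophages and 23.8 CPM for lymphocytes in any of the 6 libraries. Cells with at least 10 reads of any of 6 markers of other cell types made up 3.05% to 6.80% of a library. The library of days 100 to 120 stood apart from the rest in several measures. It had the fewest genes detected per cell at equal depth (median 4599, against 5229 to 6388 in the other 5 libraries) and the highest sums of ribosomal protein and of immediate early genes. The library of days 70 to 80 had the most genes detected and was alone in its level of cell cycle genes.

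No gene passed the threshold of the comparison. edgeR's quasi-likelihood test with Benjamini-Hochberg adjustment called 0 of 16949 genes tested (0.0%), with a lowest adjusted p of 0.346. At an unadjusted p under 0.05 there were 1025 genes (6.05%), of which 480 were higher in late gestation (2.83%) and 545 lower (3.22%). DESeq2 on the same sums called 203 of 17671 genes (1.15%), 86 higher (0.487%) and 117 lower (0.662%). All 195 of these that edgeR tested had an unadjusted p under 0.05 there. The libraries of the groups did not overlap in 999 genes that were higher in late gestation (5.89%) and in 980 that were lower (5.78%). The median log2 fold change over all genes was 0.01, and all fold changes below are late over early gestation.

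Measured over 8098 genes, a library of late gestation was about as far from one of early gestation as libraries of the same group were from each other. The root mean square log2 difference was 0.46 to 0.64 for the 9 pairs across groups, 0.48 to 0.57 for the 3 pairs within late gestation and 0.47 to 0.57 for the 3 pairs within early gestation. The closest pair of all crossed the boundary, days 90 to 100 with days 50 to 70. The first principal component held 29.6% of the variance. Late gestation lay at 7.96, 4.12 and 28.2 on it in order of days, and early gestation at -27.0, -12.7 and -0.563. The groups did not overlap on this axis, but the nearest libraries of the groups were closer to each other than days 140 to 150 were to days 100 to 120. The second component (23.4%) set days 100 to 120 apart at -31.3, and the third (20.0%) set days 70 to 80 apart at -24.9.

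The 24 genes named first, 12 in each direction, are those of smallest unadjusted p among named genes of at least 20 CPM in the higher group whose groups did not overlap. None of them was called by edgeR (adjusted p 0.346 to 0.513). DESeq2 called all 24, with adjusted p from 1.19e-09 to 0.0201, while 14 other settings of the comparison gave them adjusted p from 0.0591 to 0.926. Leaving out any one library turned the direction of none of the 24. Groups that do not overlap keep their order when a library is dropped, so the choice of genes all but fixed this in advance. Most list members given below were also chosen for groups that do not overlap, or after their values were seen. That the groups of such a gene were apart is therefore a description. Among the 12 lower genes, ACLY, ACSS2, ELOVL6, HSD17B12 and MVD serve the making of fatty acids or cholesterol. Among the 12 higher genes, PLIN2 and ABHD5 act at the lipid droplet, and ZBTB16, KLF11, CEBPB and CREB3L3 are transcription factors.

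**Figure D1:**
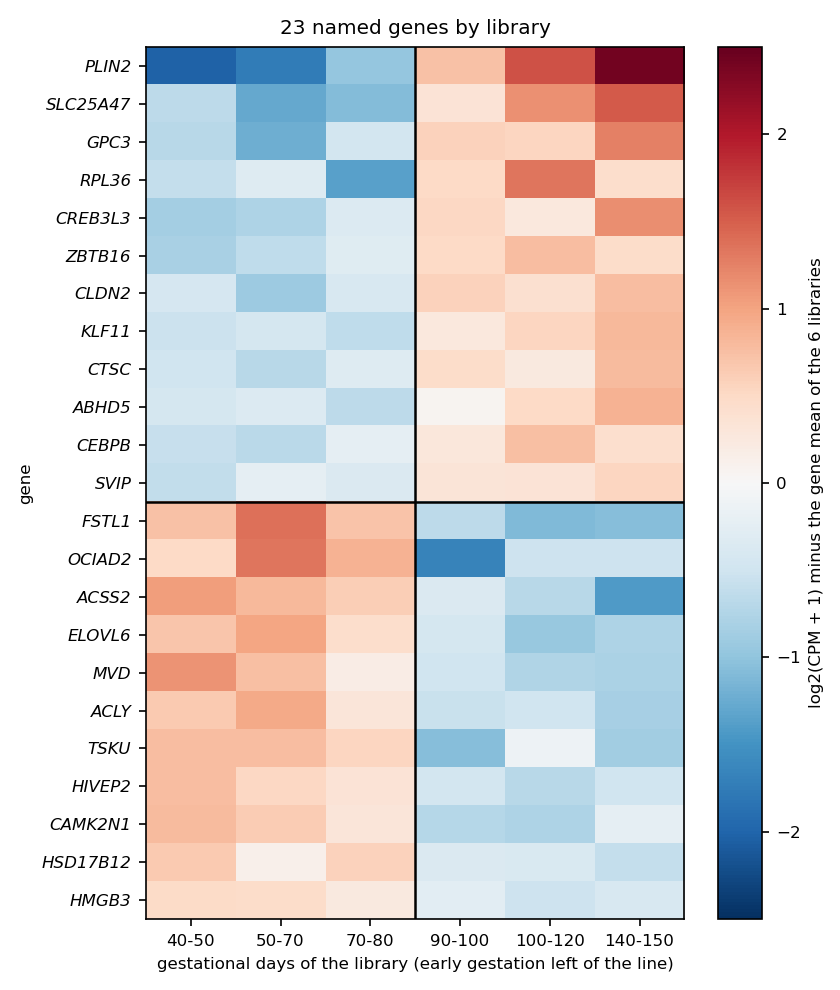
Level of 23 of the 24 genes (rows) in the 6 gestation libraries (columns, gestational days), as log2(CPM + 1) minus the mean of the gene over the 6 libraries. Red is above and blue below that mean; the upper 12 genes were higher and the others lower in late gestation, which the rule of choice required, and PLIN2 spans the widest range, 3.63 to 99.4 CPM.

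Cholesterol synthesis was lower through most of the pathway. Of 19 members tested, 18 had a negative fold change, 14 had an unadjusted p under 0.05 and were lower (against 3.22% of all genes), and 13 did not overlap between the groups and were lower (against 5.78%). DESeq2 called 6 of them, all lower (against 0.662% of all genes). The median log2 fold change of the list was -1.01, against 0.01 over all genes, and it stayed between -1.10 and -0.74 when single libraries were left out. One listed gene, EBP, was below the filter on low counts and another was not analysed here.

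MVD makes the activated isoprene unit from which sterols are built. Its level was 50.0, 41.7 and 40.8 CPM in late gestation, in order of days, and 157, 120 and 81.2 CPM in early gestation. Every late-gestation library lay below every early-gestation library, and within early gestation each stage was below the one before it. The log2 fold change was -1.44 ± 0.25 (SE, n = 3 each), and edgeR gave an adjusted p of 0.359.

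HMGCS1, which acts near the start of the pathway, stood at 164, 252 and 85.3 CPM in late gestation, against 631, 564 and 399 CPM in early gestation. The groups were apart, with a log2 fold change of -1.67. FDPS, which joins isoprene units, stood at 28.4, 37.3 and 8.53 CPM in late gestation, against 84.4, 85.5 and 61.7 CPM in early gestation. SQLE, which starts the closing of the sterol rings, stood at 78.0, 102 and 36.1 CPM in late gestation, against 263, 242 and 162 CPM in early gestation. In HMGCS1, FDPS and SQLE the lowest library was days 140 to 150 and the highest of late gestation was days 100 to 120, so the order of late gestation was not the same as in MVD. The later enzymes FDFT1 (-1.01), DHCR7 (-1.25) and MSMO1 (-1.03) also had groups that did not overlap. PMVK was the single member with a positive fold change (0.47), and its groups overlapped.

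Genes that regulate, take up or export sterols shifted little in the median of their list, with a log2 fold change of -0.09. Of 18 tested, 3 had an unadjusted p under 0.05 and were lower (against 3.22% of all genes). The groups did not overlap in 4 that were lower (against 5.78%) and in 1 that was higher (against 5.89%). STARD4, which carries cholesterol between membranes, had 27.0, 23.3 and 16.8 CPM in late gestation and 49.6, 39.6 and 43.8 CPM in early gestation, and DESeq2 called it. LIPA, the lysosomal lipase that frees cholesterol from its esters, had 74.0, 65.5 and 49.6 CPM in late gestation and 91.5, 99.1 and 104 CPM in early gestation. The groups were apart in both. INSIG1 and SREBF2, which sit at the sterol sensor itself, overlapped between groups (log2 fold changes -0.41 and -0.37).

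Fatty acid synthesis was lower as well. Of 20 members tested, 19 had a negative fold change, and 12 had an unadjusted p under 0.05 and were lower (against 3.22% of all genes; 8 to 14 without single libraries). The groups did not overlap in 12, again all lower (against 5.78%), and DESeq2 called 6, all lower (against 0.662%). The median was -0.64 and ranged from -0.90 to -0.62 when single libraries were left out.

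ACSS2 turns acetate into acetyl-CoA. It had 32.6, 25.8 and 15.2 CPM in late gestation and 87.6, 74.6 and 65.2 CPM in early gestation. ACLY, which makes acetyl-CoA from citrate, had 14.5, 15.1 and 11.9 CPM in late gestation and 35.2, 43.0 and 27.2 CPM in early gestation. Both genes had groups set apart, which the rule of choice required, and in ACSS2 each stage was below the one before it. The log2 fold changes were -1.63 ± 0.28 for ACSS2 and -1.35 ± 0.21 for ACLY (SE, n = 3 each). A slope over the midpoints of the 6 ranges of days, tested in edgeR in place of the groups, called ACSS2 (adjusted p 0.0302).

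The enzymes given here that build and modify the chain were all lower, with 1 exception in overlap among them. ELOVL6, which lengthens long-chain fatty acids, had 28.8, 20.0 and 22.7 CPM in late gestation and 64.5, 79.1 and 53.8 CPM in early gestation. HSD17B12, a reductase of the elongation cycle, had 59.7, 58.9 and 50.8 CPM in late gestation and 122, 84.7 and 116 CPM in early gestation. SCD, the desaturase, had 12.3, 7.76 and 1.77 CPM in late gestation and 36.4, 29.7 and 29.3 CPM in early gestation. In these 3 genes the groups were apart, and SCD was lower at each late stage than at the one before. FASN, fatty acid synthase itself, had 21.2, 8.11 and 4.12 CPM in late gestation and 73.0, 66.5 and 15.7 CPM in early gestation. Its groups overlapped, because days 70 to 80 lay below days 90 to 100. THRSP, a nuclear protein that promotes lipogenesis, had 127, 71.7 and 5.17 CPM in late gestation and 440, 450 and 153 CPM in early gestation. SREBF1, the gene of the SREBP that governs lipogenesis, was lower by less (log2 fold change -0.83), with 9.02, 8.40 and 5.76 CPM in late gestation and 14.1, 15.8 and 11.5 CPM in early gestation.

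To give levels per cell, single cells were thinned to 155164 reads each. SQLE was detected in 85.9%, 77.4% and 70.5% of cells in late gestation (355, 340 and 437 cells) and in 99.2%, 99.6% and 98.6% in early gestation (265, 252 and 213 cells). The exact 95% interval of days 90 to 100 was 81.9% to 89.4% and that of days 70 to 80 was 95.9% to 99.7% (Clopper-Pearson, counting error only). The median cell held 13, 10 and 3 SQLE reads in late gestation and 35, 33.5 and 26 in early gestation. So most cells of late gestation still held the transcript, at fewer reads. SCD was detected in 33.5%, 24.1% and 10.1% of cells in late gestation and in 71.7%, 63.1% and 76.1% in early gestation. FASN was detected in 52.1%, 27.9% and 22.2% of cells in late gestation and in 94.3%, 90.9% and 69.0% in early gestation. The median early-gestation cell held only 2 to 3 SCD reads and 2 to 10 FASN reads, so for these genes fewer cells with the transcript and fewer transcripts per cell cannot be told apart. Days 100 to 120 had the lowest gene detection (median 4599 genes per cell). The lowest shares of SQLE, SCD and FASN were those of days 140 to 150, where the median was 5809 genes. The part of gene detection in these shares was not tested.

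Summed over the list, the median cell held 576, 701 and 404 reads of cholesterol synthesis genes in late gestation and 1088, 891 and 833 in early gestation. For fatty acid synthesis it held 137, 126.5 and 126 reads in late gestation and 311, 262.5 and 212 in early gestation. In both the groups did not overlap, and the two-sided exact permutation test over the 3 + 3 libraries gave p = 0.1 for each, the smallest value that 3 against 3 can give. In fatty acid synthesis the upper quartile of days 140 to 150 (153 reads) lay below the lower quartile of days 50 to 70 (203 reads). It lay above the lower quartile of days 70 to 80 (145 reads), as did those of days 90 to 100 (198 reads) and 100 to 120 (177 reads). At days 70 to 80 the 10th and 90th percentiles were 119 and 391.4 reads. Across its 213 cells the sums of both lists had a Spearman correlation of 0.82, against 0.43 to 0.46 in the earlier early-gestation libraries and -0.15 to 0.40 in late gestation. Cells of a library share their depth and preparation, so this is a description.

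**Figure D2:**
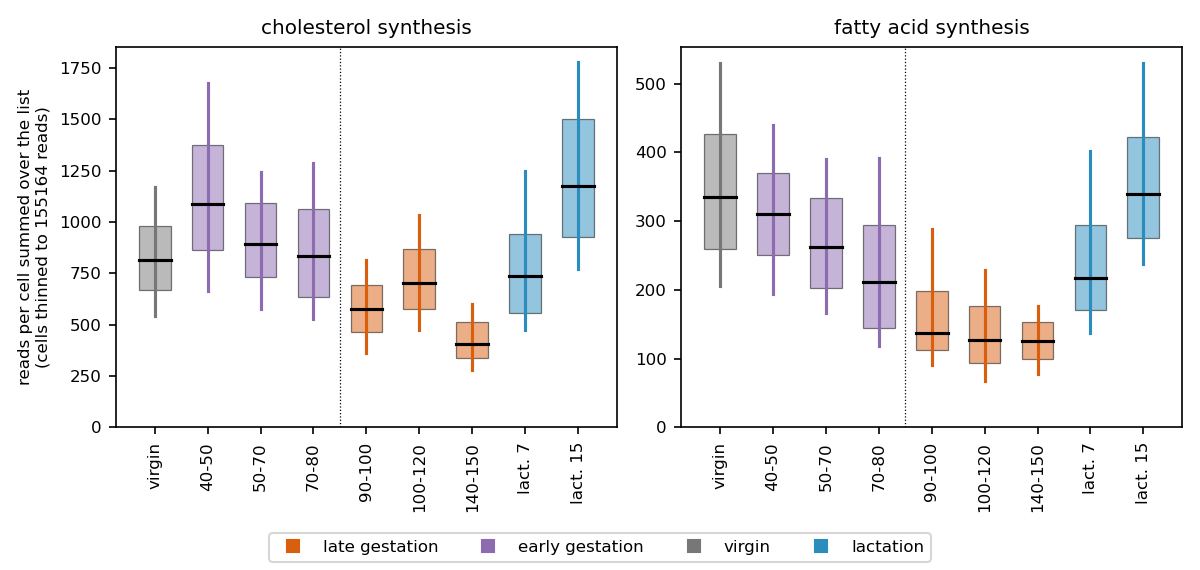
Reads per cell summed over the cholesterol synthesis list (left) and the fatty acid synthesis list (right) in each library, with cells thinned to 155164 reads, where boxes span the quartiles, black lines are medians and vertical lines run from the 10th to the 90th percentile. The late-gestation medians (404 to 701 and 126 to 137) lie below the early-gestation medians (833 to 1088 and 212 to 311), while the virgin library (816 and 335) and day 15 of lactation (1178 and 339) lie at or near the early-gestation level.

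On the side of storage, PLIN2 had the widest difference among the 24 genes. PLIN2 coats lipid droplets and is a known marker of stored fat. It had 29.9, 55.3 and 99.4 CPM in late gestation and 3.63, 4.55 and 8.64 CPM in early gestation. The groups were far apart, and each stage was above the one before it from days 40 to 50 onward. The log2 fold change was 3.46 ± 0.51 (SE, n = 3 each), and its values without single libraries ran from 2.92 to 3.92. The slope over days called PLIN2 in edgeR (adjusted p 0.0268). In thinned cells PLIN2 was detected in 61.1%, 44.7% and 87.9% of cells in late gestation and in 17.0%, 21.0% and 36.6% in early gestation.

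The lipid droplet list shifted little in its median, which was 0.08. Of 23 members tested, 5 had an unadjusted p under 0.05 and were higher (against 2.83% of all genes), and 2 were lower (against 3.22%). The lower ones were GPAM, which starts glycerolipid synthesis (log2 fold change -0.47), and LIPE, hormone-sensitive lipase, at no more than 0.533 CPM in the 6 libraries. Both were chosen after their values were seen, and without single libraries at most 1 member was lower at that p. ABHD5, the co-activator of adipose triglyceride lipase, had 27.0, 36.5 and 47.7 CPM in late gestation and 18.6, 19.8 and 15.9 CPM in early gestation. G0S2, an inhibitor of the same lipase, had 43.1, 51.1 and 64.7 CPM in late gestation and 32.2, 15.9 and 18.5 CPM in early gestation. Both had groups set apart, with log2 fold changes of 1.03 and 1.25. HILPDA, another inhibitor of the lipase, had 2.88, 14.2 and 13.4 CPM in late gestation and 1.48, 3.02 and 2.92 CPM in early gestation, so days 90 to 100 lay within the range of early gestation.

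Of 13 tested genes of PPARA and its targets, 11 had a positive fold change and the median was 0.95, and 3 had an unadjusted p under 0.05, all higher (against 2.83% of all genes): PLIN2, FGF21 and CREB3L3. This count was 6 without days 70 to 80 and 6 without days 100 to 120, and the median was 0.61 to 1.13 without single libraries. DESeq2 called the same 3 (against 0.487% of all genes). FGF21 had 8.02, 45.5 and 21.8 CPM in late gestation and 0.417, 3.35 and 0.575 CPM in early gestation. The groups did not overlap, though the nearest libraries, days 90 to 100 and 50 to 70, were close. The log2 fold change was 4.12 ± 0.95 (SE, n = 3 each), and it ran from 3.37 without days 100 to 120 to 5.66 without days 50 to 70. FGF21 was detected in 34.9%, 38.5% and 49.4% of cells in late gestation and in 3.02%, 19.8% and 4.23% in early gestation, so at this depth it was seen in a minority of cells in all 6 libraries. CREB3L3, a membrane-bound factor of the liver known in mice to activate FGF21, had 113, 94.8 and 178 CPM in late gestation and 43.3, 45.5 and 62.1 CPM in early gestation. PDK4, which holds pyruvate back from oxidation, had 151, 383 and 427 CPM in late gestation and 38.8, 28.5 and 269 CPM in early gestation. Its days 70 to 80 lay with late gestation, and the groups overlapped.

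The list of fatty acid uptake and carnitine and the list of fatty acid oxidation differed little in their medians, 0.15 over 13 genes and 0.03 over 21. At an unadjusted p under 0.05, 3 of the 13 were higher and 1 was lower, and 3 of the 21 were higher. Of all genes 2.83% were higher and 3.22% lower at that p. Without single libraries 1 to 5 of the 13 and 0 to 4 of the 21 were higher. SLC22A5, the carnitine importer of the cell membrane, had 7.27, 14.6 and 44.8 CPM in late gestation and 3.14, 4.13 and 4.16 CPM in early gestation. It was higher at each late stage than at the one before, and its log2 fold change of 2.55 was 1.52 without days 140 to 150. SLC25A20, which carries acylcarnitine into mitochondria, had 109, 117 and 135 CPM in late gestation and 91.8, 82.2 and 87.9 CPM in early gestation. The beta-oxidation genes HADHA, HADHB and ACADVL were higher with log2 fold changes of 0.61, 0.63 and 0.54 and groups that did not overlap. In the list of 21 the groups did not overlap in 3 members that were higher (against 5.89% of all genes). They did not overlap in 2 that were lower (against 5.78%). Over the whole list 11 members had a positive and 10 a negative fold change, and HADHB, at 0.63, was the highest. DESeq2 called none of the 3. ACSL5, which activates fatty acids, was lower, with 139, 168 and 124 CPM in late gestation and 205, 194 and 196 CPM in early gestation.

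SLC25A47, a mitochondrial carrier found mainly in liver, had 64.1, 113 and 148 CPM in late gestation and 31.5, 20.3 and 23.1 CPM in early gestation. The groups were apart and the log2 fold change was 2.12 ± 0.32 (SE, n = 3 each). CES4A, a carboxylesterase, had 8.16, 12.7 and 67.0 CPM in late gestation and 0.934, 1.94 and 3.24 CPM in early gestation. It was higher at each stage than at the one before, and the slope over days called it in edgeR (adjusted p 0.000139), although 1 cell held up to 33.1% of its reads in a library. The slope called 6 genes in all. The higher ones were CES4A, SLC22A5, PLIN2 and the hydrolase gene ABHD1, and the lower ones were ACSS2 and LOC101102683, a gene without a name in the files. ABHD1 and LOC101102683 were chosen after their values were seen.

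**Figure D3:**
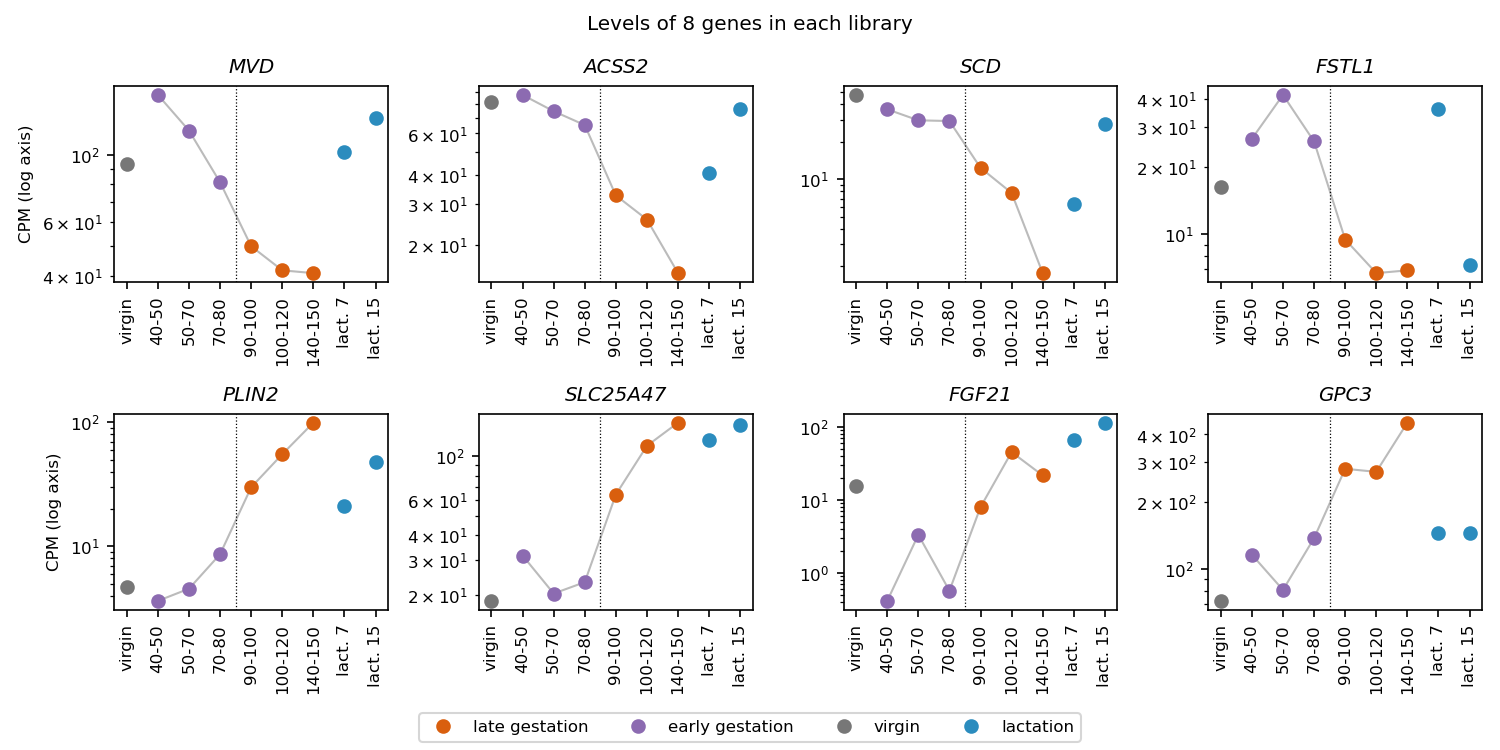
CPM (log axis) of 8 genes in each library, from the virgin library on the left to lactation days 7 and 15 on the right, with colours for late gestation, early gestation, virgin and lactation, a grey line through gestation and a dotted line at the boundary of the groups. Within gestation MVD, ACSS2, SCD and FSTL1 lie lower to the right of the boundary and PLIN2, SLC25A47, FGF21 and GPC3 lie higher. Day 15 of lactation is at 132 CPM for MVD, 76.2 CPM for ACSS2, 27.5 CPM for SCD and 7.27 CPM for FSTL1.

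Besides CREB3L3, the transcription factors among the 12 higher genes had log2 fold changes of 1.00 to 1.18. ZBTB16, a zinc finger factor that glucocorticoids are known to induce, had 42.4, 51.1 and 40.8 CPM in late gestation and 16.5, 18.8 and 23.8 CPM in early gestation (log2 fold change 1.18). KLF11, a Krüppel-like factor, had 36.0, 43.7 and 52.7 CPM in late gestation and 20.1, 21.7 and 18.7 CPM in early gestation (1.13). CEBPB, a factor of the acute phase and of gluconeogenesis, had 54.8, 76.3 and 60.2 CPM in late gestation and 29.9, 27.8 and 38 CPM in early gestation (1.00). The groups were apart in all 3. Of 19 hepatocyte transcription factors tested, 3 had an unadjusted p under 0.05 and were also the 3 that DESeq2 called: CREB3L3, HNF4G (log2 fold change 1.17) and FOXA2 (0.84), all higher (against 2.83% and 0.487% of all genes). The median of that list was 0.01, and 5 members had such a p without days 100 to 120. Of 11 tested glucocorticoid targets, 3 had an unadjusted p under 0.05 and were higher (ZBTB16, KLF9 and FKBP5; against 2.83% of all genes). The count was 7 without days 70 to 80, 2 without days 140 to 150 and 1 without each of days 40 to 50, 50 to 70 and 100 to 120, and the list median of 0.29 was 0.94 without days 70 to 80. LCN2 was lower, with 47.1, 45.4 and 55.5 CPM in late gestation and 69.9, 77.2 and 86.0 CPM in early gestation.

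Of the other higher genes, 4 belong to the cell surface, the lysosome and protein turnover. GPC3, a glypican that hepatocytes of the fetal liver make in plenty, had 281, 272 and 452 CPM in late gestation and 116, 80.6 and 138 CPM in early gestation, with a log2 fold change of 1.59 ± 0.28 (SE, n = 3 each). AFP, the other well-known fetal liver gene, stayed at or below 1.77 CPM in all 6 libraries. CLDN2, a tight junction protein, had 62.7, 54.9 and 71.4 CPM in late gestation and 30.8, 21.6 and 31.2 CPM in early gestation. CTSC, a lysosomal protease, had 102, 87.9 and 129 CPM in late gestation and 52.1, 45.3 and 58.8 CPM in early gestation. SVIP, which binds the VCP segregase, had 26.6, 27.0 and 30.8 CPM in late gestation and 13.5, 17.8 and 16.1 CPM in early gestation. By the rule of choice the groups of these genes were apart.

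Ribosomal protein genes were slightly higher almost without exception. Of 77 tested, 76 had a positive fold change (50.8% of all genes did), and 28 had groups that did not overlap, all higher (against 5.89%). An unadjusted p under 0.05 was found in 10, all higher (against 2.83%). The median was 0.32. RPL36 was the extreme member, with 601, 1073 and 573 CPM in late gestation and 279, 337 and 166 CPM in early gestation. RPL37A followed, with 2432, 2636 and 1871 CPM in late gestation and 1489, 1559 and 1385 CPM in early gestation. The groups were apart in both and days 100 to 120 was highest. Without that library the median of the list was 0.20 and 3 members had an unadjusted p under 0.05; there were 2 without days 70 to 80, 6 without days 90 to 100 and 16 without days 140 to 150. In thinned cells the median cell held 8899, 10882 and 8239 ribosomal protein reads in late gestation and 7635, 7391.5 and 7165 in early gestation (exact permutation p = 0.1, the smallest possible). These genes have many near-identical processed copies in mammalian genomes, so reads may have been split or lost between copies.

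Immediate early genes and heat shock genes, which cell dissociation is known to induce, were mostly higher in late gestation too. Of 28 tested, 23 had a positive fold change, 4 had an unadjusted p under 0.05 (all higher, against 2.83% of all genes), and the median was 0.51. That count was 1 without days 100 to 120, 1 without days 40 to 50, 2 without days 50 to 70 and 7 without days 90 to 100. HSPA1A, a heat shock chaperone, had 86.8, 295 and 91.3 CPM in late gestation and 53.9, 72.4 and 53.9 CPM in early gestation. JUND, an AP-1 factor, had 139, 430 and 114 CPM in late gestation and 77.5, 119 and 80.6 CPM in early gestation. Days 100 to 120 stood far above all others, and without it the median of the list was 0.09. The part of these genes in the differences of others was not tested. As a log2 fold change MVD was at -1.39 and PLIN2 at 3.53 without days 100 to 120.

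**Figure D4:**
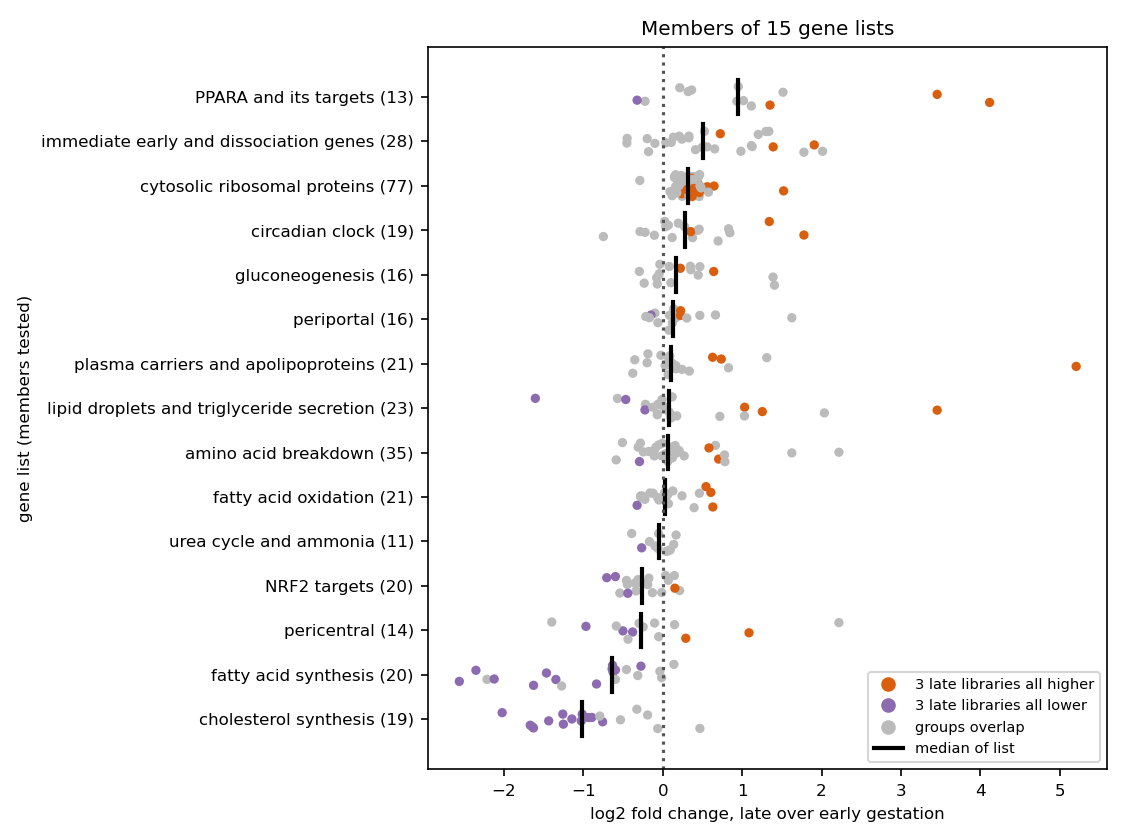
Log2 fold change, late over early gestation, of the tested members of 15 gene lists (points), ordered by list median (black bars), where orange and purple points are genes whose 3 late-gestation libraries all lay above or all below the 3 early-gestation libraries, grey points overlap, and the dotted line is the median of all genes (0.01). The synthesis lists lie lowest (-1.01 and -0.64), the ribosomal list is narrow around 0.32, and the PPARA list holds FGF21 at 4.12 and PLIN2 at 3.46.

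The lower genes outside lipid synthesis had no common list. FSTL1, a secreted glycoprotein, had 9.48, 6.72 and 6.91 CPM in late gestation and 26.6, 41.7 and 25.9 CPM in early gestation. It had the smallest unadjusted p of the 24 genes (4.4e-05), with a log2 fold change of -2.03 ± 0.25 (SE, n = 3 each), and it was detected in 27.3%, 18.5% and 26.1% of thinned cells in late gestation and in 45.7%, 58.7% and 59.6% in early gestation. Fibroblasts are known to make FSTL1. Of their markers, LUM and COL1A2, chosen after their values were seen, were at or below 1.61 CPM in all 6 libraries. Both were lower in late gestation, at 0.0241 to 0.0338 CPM for LUM in late gestation and 0.0746 to 1.11 CPM in early gestation. Among the 10 tested stellate and fibroblast markers, 7 had a negative and 3 a positive fold change. With COL6A3, which was below the filter on low counts, the 11 listed markers summed to 18.5 to 27.1 CPM in late gestation. In early gestation they summed to 8.14 to 14.6 CPM. Of these sums RGS5 alone had 18.6, 11 and 16.1 CPM in late gestation, in order of days. Without the cells that held reads of other-cell markers the log2 fold change of FSTL1 was -1.99. The only fibroblast marker used to find those cells was COL1A1, and a part of fibroblasts in the FSTL1 reads was not tested.

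TSKU, a secreted leucine-rich protein known in mice as a liver hormone, had 89.0, 170 and 102 CPM in late gestation and 318, 321 and 272 CPM in early gestation. OCIAD2 had 5.34, 13 and 13.2 CPM in late gestation and 27.7, 50.2 and 35.7 CPM in early gestation. In OCIAD2 the step across the boundary was the steepest of the 24 genes, 2.53 on the scale of log2(CPM + 1) between days 70 to 80 and days 90 to 100. CAMK2N1, an inhibitor of the kinase CaMKII, had 34.4, 33.1 and 49.0 CPM in late gestation and 99.7, 89.2 and 70.6 CPM in early gestation. HIVEP2, a zinc finger factor, had 9.69, 8.14 and 9.39 CPM in late gestation and 24.2, 20.1 and 17.7 CPM in early gestation. HMGB3, a chromatin protein, was the most even, with 24.6, 20.3 and 22.2 CPM in late gestation and 41.4, 40.9 and 35.1 CPM in early gestation.

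**Figure D5:**
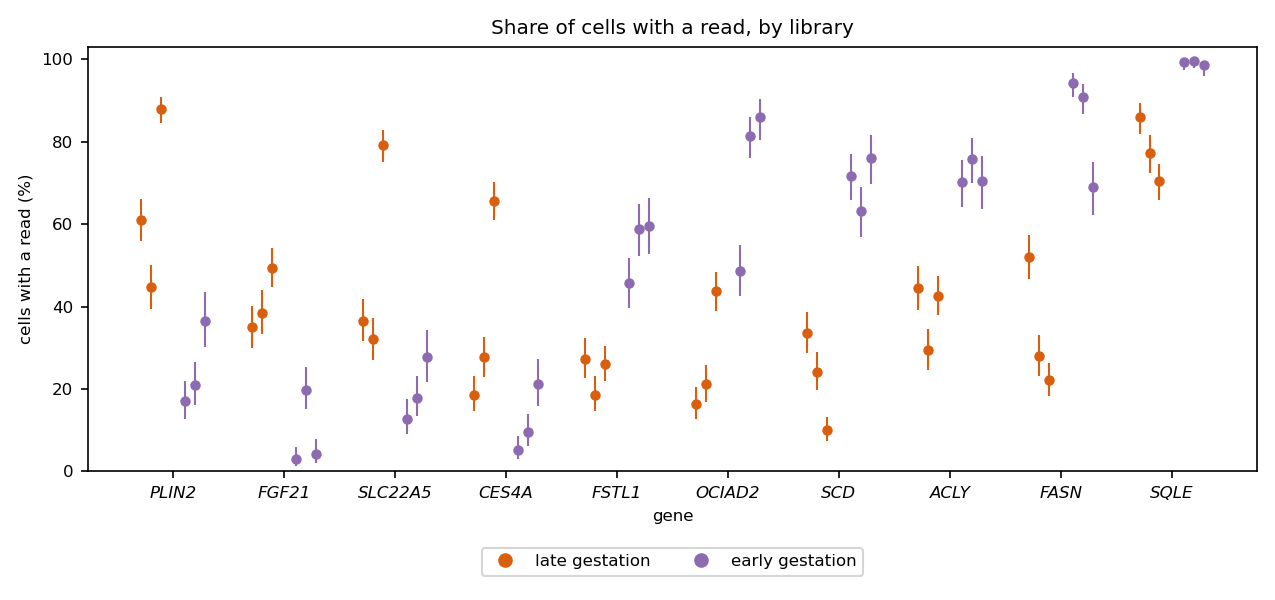
Percent of cells with at least 1 read of 10 genes in the 3 late-gestation libraries (left of each gene, in order of days) and the 3 early-gestation libraries (right), with cells thinned to 155164 reads and exact 95% intervals that cover counting error only. PLIN2 is at 87.9% at days 140 to 150, SCD is at 10.1% there, and SQLE is at or above 70.5% in late gestation.

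Cell cycle genes had a median of -0.89 over 25 members, but this rested on 1 library. TOP2A, which untangles replicated DNA, had 0.141, 6.11 and 0.714 CPM in late gestation and 1.19, 1.72 and 26.8 CPM in early gestation. Days 70 to 80 stood far above all others, and without it the median of the list was 0.65 and the log2 fold change of TOP2A was 0.67. CCND1, the cyclin that growth signals induce, had 22.7, 14.2 and 26.9 CPM in late gestation and 51.8, 31.9 and 62.1 CPM in early gestation (log2 fold change -1.19). It was the one member whose groups did not overlap (5.78% of all genes were lower in this way). It was also the one that DESeq2 called (0.662% of all genes were called lower).

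Among secreted proteins, VTN (vitronectin) had 2585, 2375 and 2210 CPM in late gestation and 1401, 1430 and 1470 CPM in early gestation (log2 fold change 0.74 ± 0.18, SE, n = 3 each). APOC3, which slows the clearing of triglyceride-rich particles, had 16428, 16993 and 22663 CPM in late gestation and 12329, 12234 and 11716 CPM in early gestation. APOA5, which speeds that clearing, had 1008, 514 and 1242 CPM in late gestation and 317, 259 and 539 CPM in early gestation. VTN and APOC3 had groups set apart, and APOA5 overlapped through days 100 to 120 and 70 to 80. APOA4 had 82.8 CPM at days 140 to 150 and at most 1.89 CPM elsewhere in gestation, so its log2 fold change of 5.21 was 1.10 without that library. The list of 21 plasma carriers and apolipoproteins had 5 members with an unadjusted p under 0.05, all higher (against 2.83% of all genes), and a median of 0.10. The median was 0.0036 without days 70 to 80 and 0.05 without days 100 to 120, and the count was 3 without each of days 50 to 70, 70 to 80 and 140 to 150. Outside the secreted proteins, TDO2, which breaks down tryptophan, was even within late gestation at 610, 598 and 610 CPM, against 342, 450 and 324 CPM in early gestation. IGFBP2, a binding protein of insulin-like growth factors, had 473, 349 and 485 CPM in late gestation and 181, 303 and 214 CPM in early gestation. TDO2 and IGFBP2 had groups set apart. The 35 genes of amino acid breakdown and the 20 of the growth hormone and IGF axis each had a median of 0.06. At an unadjusted p under 0.05, 2 of the 35 were higher and 1 was lower, and 1 of the 20 was higher. Of all genes 2.83% were higher and 3.22% lower at that p.

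No member had an unadjusted p under 0.05 among 11 genes of the urea cycle, 11 of propionate use, 16 of glycolysis and glycogen, 19 of endoplasmic reticulum folding and 61 nuclear genes of the respiratory chain. Their medians lay between -0.05 and 0.07, and leaving out single libraries gave at most 2 such members in a list. Gluconeogenesis, the pathway by which a ruminant liver makes nearly all its glucose, had a median of 0.16 over 16 genes. It had 1 member with an unadjusted p under 0.05, which was higher (against 2.83% of all genes). Without days 100 to 120 it had 4 such members, all higher, and a median of 0.20, without days 90 to 100 it had 2 higher and 1 lower, and without days 40 to 50 or 50 to 70 it had 0. A p that misses the threshold does not show that these genes were equal, with 3 libraries in each group.

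The place of the difference along gestation was looked at gene by gene. In 11 of the 12 higher and 11 of the 12 lower genes the largest step between neighbouring stages fell between days 70 to 80 and days 90 to 100, which was so for 18.2% of all genes tested. The exception among the higher genes was CREB3L3, with its largest step from days 100 to 120 to days 140 to 150. A gene chosen for groups that do not overlap must step across that boundary, so this count is a description. The steps across it measured 0.52 to 1.85 in the higher genes and 0.50 to 2.53 in the lower genes, on the scale of log2(CPM + 1).

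The virgin and lactation libraries, which the choice of genes did not use, lay on different sides. The virgin library was nearer to the mean of early gestation in 9 of the 12 higher genes and in 8 of the 12 lower ones. For the higher genes, day 7 of lactation was nearer to late gestation in 8 of 12 and day 15 in 10 of 12. For the lower genes, day 7 of lactation was nearer to early gestation in 8 of 12 and day 15 in 7 of 12. SLC25A47 shows the first pattern, with 122 and 144 CPM at days 7 and 15 of lactation, against 18.6 CPM in the virgin library. MVD shows the second, with 102 and 132 CPM at these days, against 93.0 CPM in the virgin library. Each of these states is 1 or 2 libraries and no test was made.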

How the data were processed

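The authors deposited whole-number read counts per gene and cell, not normalized, in 1 table of 28861 rows. Trimming (Trimmomatic 0.39), mapping (HISAT2 2.1.0) and counting (featureCounts 2.0.1) tools are listed in the submitters' processing notes. The genome build, and whether molecular identifiers were collapsed, are not given in the sources used here. The 24 rows that named no gene (0.474% of reads) were dropped, and 0 columns matched no sample. Counts were summed over all cells of a library. No cell was left out and doublets were not called, since cells were picked singly.

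edgeR 4.0.16 in R 4.3.3 (filterByExpr, TMM, quasi-likelihood test, Benjamini-Hochberg, threshold 0.05) was fitted to the 6 gestation libraries with the group as the only term. Alternatives used DESeq2 1.42.0, limma 3.58.1 and the other settings named in the closing section. The procedure was tested on simulated counts of 16431 genes. It called 3.1% of 64 genes changed by 1 log2 unit and 53.8% of 65 changed by 2. Of 64 changed by 3 it called 71.9%, and there were 7 false calls. At a change of 1 log2 unit most changed genes were thus missed. CPM of all 9 libraries share 1 TMM scale. Cell measures used cells thinned to 155164 reads (10th percentile), without cells of fewer reads.

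The members, the 45 gene lists and the comparison were chosen with earlier results of these data known. Lists are described by counts and medians, with no set test. The rule named up to 12 genes per direction called by edgeR, and where none was called, those of smallest unadjusted p with a symbol not starting with LOC, at least 20 CPM in the higher group and groups that do not overlap. For each list it named up to 3 such members of at least 5 CPM with the largest fold change. Not every gene so named is given here, and 1 of the 24 is not reported. SQLE, FASN, SREBF1, SREBF2, INSIG1, FDFT1, DHCR7, MSMO1, PMVK, PDK4, HILPDA, FKBP5, APOA5, TOP2A, JUND, LUM and COL1A2 are outside the rule and were chosen after their values were seen. Other steps ran in Python 3.11.15 (SciPy 1.17.1, pandas 2.3.3, numpy 2.4.6, matplotlib 3.10.9).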

Additional observations from a re-analysis of the deposited data

How the results depend on the processing

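Of 16 alternatives to the edgeR test, 14 called 0 genes. These were library size in place of TMM, no filter on low counts, the spread of all 9 libraries, leaving out cells with reads of other-cell markers, leaving out days 70 to 80 and 90 to 100 together, leaving out each of the 6 libraries, equal weight per cell in limma, limma-voom, and each gene without its top cell. The last 2 were chosen after seeing the data. DESeq2 called 203 genes, 86 higher and 117 lower, and the slope over days called 6, 4 higher and 2 lower. Among members of all lists DESeq2 called 33 and the slope 4, against 0 in edgeR. Of all genes DESeq2 called 1.15%. The lists were chosen with earlier results of these data known, so these counts are a description. In 58 of the 203 genes 1 cell held over 50% of the reads of a gestation library. Of 1225 values of named genes under the alternatives that compare the groups, 1223 kept their direction. Many of these genes were chosen for groups that do not overlap, which favours a kept direction, so this count is a description. The 2 that did not were of TOP2A, at 0.67 without days 70 to 80 and 1.22 without days 70 to 80 and 90 to 100, where the library that carried it is left out; without single libraries TOP2A ran from -4.53 to 0.67. In cells thinned to 155164 reads the genes detected averaged 5311 in late gestation and 5679.8 in early gestation (means of library medians, exact permutation p = 0.6), and 4897 and 5203 at 100000 reads. No paired analysis was possible because the labels give no replicate numbers and each stage is its own library.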

Other observations

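RGS5, a regulator of G protein signalling known as a pericyte marker, had 18.6, 11 and 16.1 CPM in late gestation and 3.06, 4.80 and 7.49 CPM in early gestation (log2 fold change 1.57), while the collagen marker COL1A2 stayed at or below 0.0962 CPM in late gestation. SLC1A2, a glutamate transporter of pericentral hepatocytes, had 38.2, 30.8 and 60.3 CPM in late gestation and 23.1, 16.1 and 21.7 CPM in early gestation. LGR5, a Wnt-potentiating receptor of the same zone, ran the other way, with 4.91, 5.47 and 3.33 CPM in late gestation and 5.52, 8.99 and 12.3 CPM in early gestation. The 14 tested pericentral genes had a median log2 fold change of -0.27, with 1 member at an unadjusted p under 0.05 in each direction. Of all genes 2.83% were higher and 3.22% lower at that p. Without single libraries 1 to 2 were higher and 0 to 3 lower at that p, and the median was -0.09 without days 140 to 150. BHLHE40, a repressor of the circadian clock, had 10.4, 14.3 and 17.6 CPM in late gestation and 5.30, 3.93 and 7.46 CPM in early gestation, and 15 of 19 clock genes had a positive fold change (50.8% of all genes did), with a median of 0.27, which was 0.11 without days 100 to 120. The hours at which livers were taken are not given in the sources used here.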
